A study of Canis lupus familiaris with 32 samples.

Results

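Integrins and laminins are the receptors and the sheet-forming matrix proteins by which skin cells and leukocytes hold on to each other and to the basement membrane. The genes were chosen by name, as those of the authors' deposited gene table with the symbol of an integrin alpha or beta chain or of a laminin chain. Described here are 35 of the 17107 genes in that table. The biopsies came from 8 Maltese-beagle atopic dogs (5 males and 3 females, aged from 5.5 up to 10.5 years) that had been sensitized through the skin to the house dust mite Dermatophagoides farinae. All had been chosen because mite allergen on the skin had given them acute lesions of atopic dermatitis. Mite patches, or mineral oil as the control, were put on the skin of the lateral thorax, and each dog gave 1 oil control biopsy at 6 h and mite biopsies at 6 h, 24 h and 48 h. The study thus has 32 arrays in 4 groups of 8 dogs. No oil biopsy at 24 h or 48 h and no dog without atopic disease is among the samples, so at 24 h and 48 h the time since the patch differs from the control along with the allergen.

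An integrin is a pair of an alpha and a beta chain that spans the membrane and binds matrix or another cell on the outside and the actin or keratin skeleton on the inside. Leukocytes use the beta chain of ITGB2 with ITGAL, ITGAM or ITGAX, and ITGA4 or ITGAE with ITGB7, to stop on vessel walls and to stay in tissue. A laminin is a cross-shaped trimer of an alpha, a beta and a gamma chain. Basal keratinocytes anchor themselves through hemidesmosomes, in which the integrin of ITGA6 and ITGB4 holds a laminin that contains the LAMA3 and LAMB3 chains.

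The array table names no genes, so each gene was named by finding the probe set, the row of the array table, whose 3 folds and adjusted p-values equal the gene's own in the authors' deposited table. Of the 35 members, 23 were linked in all 3 comparisons (16 integrins and 7 laminins). A further 8 were equal in only 2 comparisons, a less certain link, and are counted apart: ITGB2, ITGAE, ITGA7, ITGB5 and LAMA5 at 24 h and 48 h, ITGA3 at 6 h and 48 h, and ITGA5 and LAMB3 at 6 h and 24 h. The remaining 4, ITGAL, ITGAV, ITGB7 and LAMB1, had no single match. Values are log2 signals as deposited, so a change of 1 is a doubling, and levels are compared only within a probe set. Array medians lay between 4.64 and 4.91, the lowest being the 24 h array of dog 5. Skeletal muscle RNA varied widely. The mean of 5 linked muscle markers reached 9 or more in 9 arrays, of which 2 were controls, 5 were 6 h mite arrays, 2 were 24 h mite arrays and none was a 48 h mite array. The beta-actin control's 3′ minus 5′ difference averaged 2.27 ± 0.32 (SD, n = 8) in the controls, 2.78 ± 0.48 at 6 h, 2.08 ± 0.37 at 24 h and 1.79 ± 0.29 at 48 h. Against the other 5′ actin probe set it was 2.77, 2.70, 2.69 and 2.69.

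After the mite patch 4 of the 5 linked leukocyte integrins rose, all 4 by 48 h and none at 6 h. Of these, ITGA4 and ITGAX are 2 of the 3 that were fully linked, while ITGB2 and ITGAE were linked in 2 comparisons. Of the 26 other linked integrins and laminins, 12 fell at 1 time or more, among them ITGA7 and ITGB5, linked in 2 comparisons. Over the linked genes, 26.3% passed at 1 time or more in either direction. Each change below is the difference from the oil control in a limma fit with the dog as a block, with its standard error (SE), and a gene passed at an adjusted p under 0.05 over all 42860 probe sets. At 6 h, 4 of the 23 fully linked members passed and all 4 fell (17.4%, where 4.4% of the 10512 linked genes and 2.89% of all probe sets passed). At 24 h, 1 rose and 9 fell (43.5%, against 10.9% of linked genes and 8.19% of all probe sets). At 48 h, 2 rose and 8 fell (43.5%, against 23.2% and 19.7%). By direction, 4.08%, 7.22% and 10.9% of the linked genes fell at 6 h, 24 h and 48 h, and 0.323%, 3.63% and 12.2% rose. That split depends on scaling at 24 h, where 382 linked genes rose and 759 fell as deposited, but 642 rose and 584 fell with each array centred on its median. For the 23 members the centred split was 1 up and 7 down. The median change of the 23 was -0.05, -0.18 and -0.19, beside 0.01, -0.03 and -0.02 for the linked genes. Of the 7 laminins, 1 fell at 6 h, 5 at 24 h and 3 at 48 h, and none rose. Of the 16 integrins, 3, 4 and 5 fell, and 0, 1 and 2 rose. ITGA2, ITGB1 and LAMA4 passed in all 3 comparisons. The 3 comparisons share the same 8 control arrays. The plot of changes from the control shows all 31 linked members, with leukocyte, epithelial and other members in turn, each ordered by the 48 h change.

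**Figure D1:**
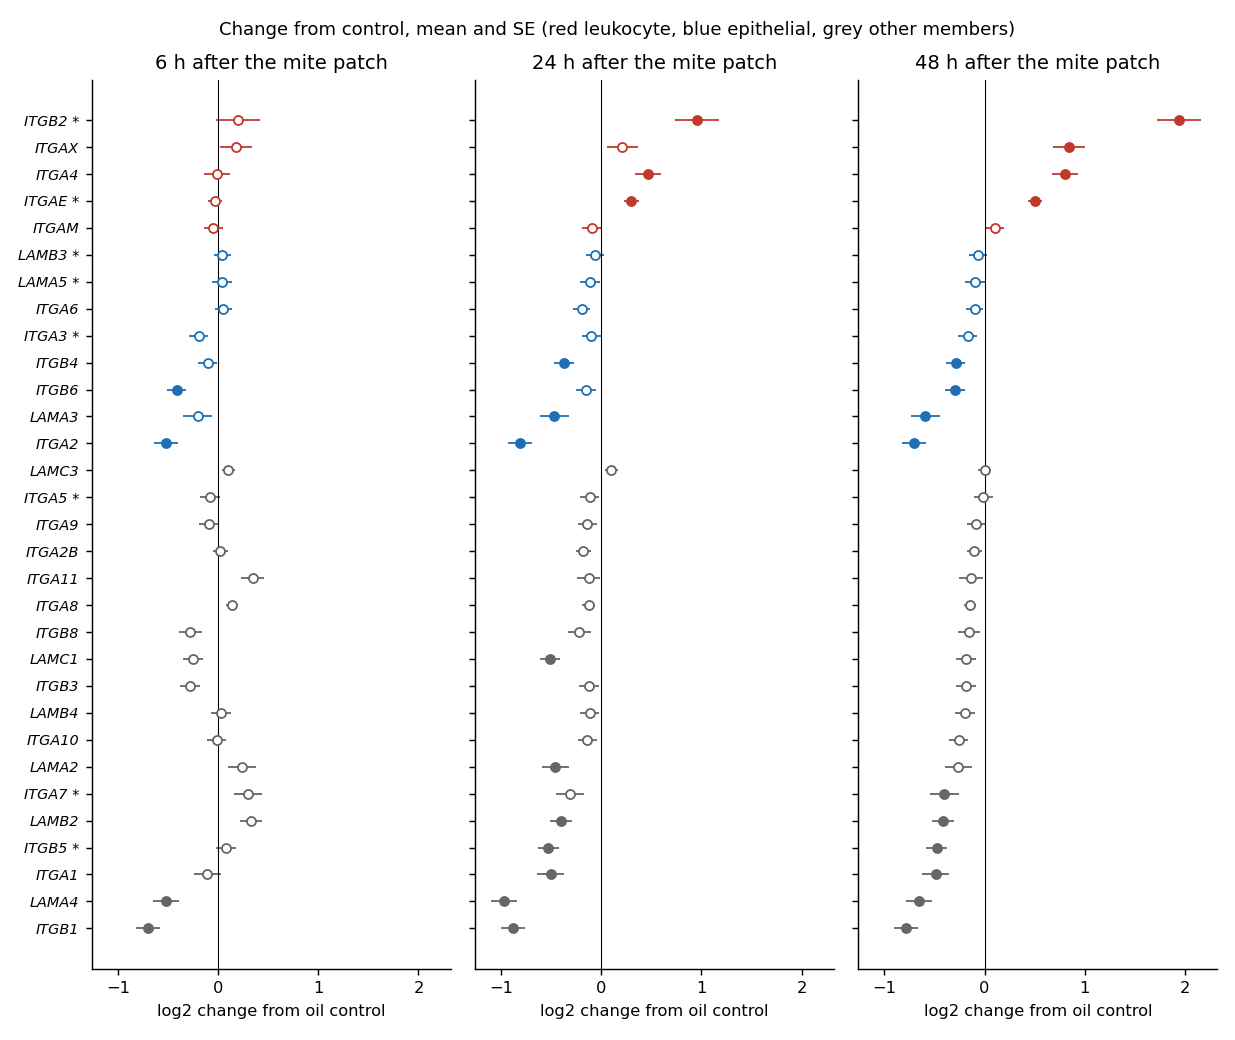
Change in log2 signal from the oil control at each time for the 31 linked integrin and laminin genes, as the mean of 8 dogs with its SE. Filled points passed at an adjusted p under 0.05 and stars mark genes linked in 2 comparisons; ITGB2 reached 1.94 at 48 h, while ITGB1 and LAMA4 lay lowest at 24 h, at -0.89 and -0.97.

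ITGB2, the beta chain that leukocyte adhesion receptors share, rose most among the members. Its log2 signal ran from 5.48 to 6.44 in the controls (median 6.15) and from 5.64 to 7.01 at 6 h (median 6.20). It ran from 6.06 to 8.27 at 24 h (median 6.91) and from 6.88 to 9.29 at 48 h (median 8.01). At 48 h every array was above every control array. The change was 0.95 at 24 h (SE 0.22, adjusted p = 0.00735) and 1.94 at 48 h (SE 0.22, adjusted p = 8.62e-07), a 3.84-fold level, and it was upward in 8 of 8 dogs at both times. At 6 h it was 0.20 (adjusted p = 0.724), with 4 dogs up and 4 down. The dogs differed widely: the 48 h change was 2.87 in dog 6 and 0.84 in dog 7, and dog 7 alone was lower at 48 h than at 24 h. Without the 9 muscle-rich arrays the 24 h change was 0.87 and did not pass (adjusted p = 0.075), while that at 48 h was 1.93 (adjusted p = 6.4e-05).

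ITGAX, the alpha chain by which dendritic cells and macrophages are often recognised, passed at 48 h only. Its signal ran from 3.96 to 4.83 in the controls (median 4.50), from 4.28 to 4.96 at 6 h (median 4.71), from 4.29 to 5.21 at 24 h (median 4.69) and from 4.70 to 6.24 at 48 h (median 5.03). The ranges overlapped at all 3 times, and the 48 h arrays of dogs 6, 2 and 4 stood highest. The change was 0.21 at 24 h (adjusted p = 0.483) and 0.84 at 48 h (SE 0.16, adjusted p = 0.000327, 8 of 8 dogs up). ITGAM, the alpha chain of neutrophils and macrophages, did not pass at any time, with changes of -0.05, -0.10 and 0.10 (SE 0.10).

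ITGA4, the alpha chain that binds VCAM1 and fibronectin on lymphocytes and eosinophils, ran from 2.74 to 3.18 in the controls (median 3.10) and from 2.87 to 3.31 at 6 h (median 3.06). At 24 h it ran from 2.72 to 3.91 (median 3.67), and at 48 h from 3.26 to 4.42 (median 3.73). All 48 h arrays were above all control arrays, and dog 7 was the lowest of them. It rose by 0.47 at 24 h (SE 0.13, adjusted p = 0.0207, 7 of 8 dogs) and 0.80 at 48 h (SE 0.13, adjusted p = 4.89e-05, 8 of 8 dogs). ITGAE, whose protein lets T cells of epithelia bind E-cadherin, ran from 2.92 to 3.21 in the controls (median 3.06), from 2.86 to 3.34 at 6 h (median 3.00), from 3.18 to 3.71 at 24 h (median 3.35) and from 3.33 to 3.82 at 48 h (median 3.56). The 48 h range lay wholly above that of the controls. Its change was 0.30 at 24 h (SE 0.07, adjusted p = 0.0102) and 0.50 at 48 h (SE 0.07, adjusted p = 1.82e-05), upward in 8 of 8 dogs both times. Without the muscle-rich arrays its 24 h change was 0.32 and did not pass (adjusted p = 0.084). The 24 h call of ITGA4 was lost with the actin difference as a covariate, without pairing by dog and without dog 2, 5 or 6. ITGA4, ITGAE, ITGAM and the control level of ITGAX lay below 4.87, the mean of the array medians. No background level was available to set them against, so the size of their changes is uncertain and no fold is given. Ranges of 8 arrays that do not overlap were found for 4.5% of linked genes at 48 h.

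**Figure D2:**
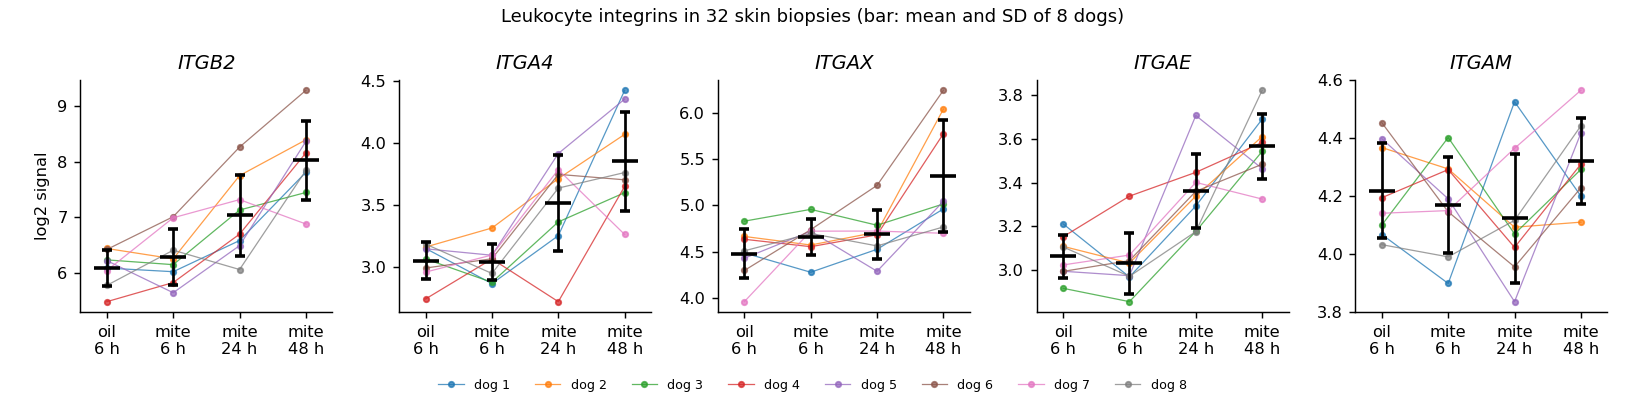
Log2 signal of the 5 linked leukocyte integrins in each of the 32 biopsies, by group, with 1 line per dog and a bar at the mean with its SD (n = 8). All ITGB2, ITGA4 and ITGAE arrays at 48 h lie above the highest control array, while ITGAX and ITGAM overlap with the controls.

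Markers of leukocytes rose with these integrins at 48 h, and few of them passed at 24 h. The 6 linked T cell markers averaged 4.08 ± 0.15 (SD, n = 8) in the controls, 4.24 ± 0.19 at 6 h, 4.58 ± 0.36 at 24 h and 5.34 ± 0.62 at 48 h, and 5 of the 6 rose at 48 h. CD3D, which carries the T cell receptor's signal, was up by 1.54 at 24 h and 2.93 at 48 h. The 5 linked myeloid markers averaged 5.58 ± 0.29, 5.55 ± 0.25, 5.95 ± 0.45 and 6.74 ± 0.40, and all 5 rose at 48 h, with AIF1 up by 1.84 and TYROBP by 1.69. At 24 h 1 of the 6 T cell markers and 1 of the 5 myeloid markers passed, and 1 of each list was below its control level. At 48 h dog 6 had the highest mean of both lists, 6.24 for T cells and 7.48 for myeloid cells. Dog 7 had the lowest myeloid mean, 6.19, and a T cell mean of 4.59, just above the 4.56 of dog 3. None of the 3 linked neutrophil and platelet markers (MPO, GP1BA and GP9) passed at any time, and their mean was between 4.08 and 4.19 in the 4 groups. That mean lay below 4.87, the mean of the array medians, and the list had 8 genes. Whether neutrophils entered the skin cannot be judged from these 3. What part more leukocytes had in the integrin values was not tested. In whole biopsies more or fewer cells of a type and more or less RNA per cell cannot be told apart.

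Of the genes around the leukocyte integrins, ICAM1, the vessel and keratinocyte ligand of the ITGB2 integrins, rose by 0.76 at 24 h (SE 0.22, adjusted p = 0.0318) and 0.77 at 48 h (SE 0.22, adjusted p = 0.0141). It was the only 1 of 6 linked counter-receptors to pass at either time, and none passed at 6 h. CDH1, the E-cadherin that ITGAE binds, changed by 0.05 and 0.29 and did not pass (adjusted p = 0.843 and 0.0552). Of 5 linked genes that switch leukocyte integrins on from inside the cell, none passed at 6 h or 24 h and 3 rose at 48 h. These were the adaptors FYB (0.98), SKAP2 (0.95) and RASSF5 (0.26), while RAP1A and CYTH1 did not pass.

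Of the 5 fully linked epithelial members, 2 fell at 6 h (ITGA2 and ITGB6), 3 at 24 h (ITGA2, ITGB4 and LAMA3) and 4 at 48 h (all but ITGA6), where 4.08%, 7.22% and 10.9% of linked genes fell. None of the 3 linked in 2 comparisons passed at any time. ITGA2, the alpha chain of a collagen receptor of keratinocytes, ran from 7.97 to 9.07 in the controls (median 8.28) and from 7.31 to 8.20 at 6 h (median 7.85). It ran from 7.15 to 8.03 at 24 h (median 7.58) and from 7.09 to 7.87 at 48 h (median 7.69). Only at 48 h did the ranges part, and 8 of 8 dogs were below their control at each time. ITGA2 fell by 0.52 at 6 h (SE 0.12, adjusted p = 0.0191), by 0.82 at 24 h (adjusted p = 0.000163) and by 0.71 at 48 h (adjusted p = 0.000126). Its level at 24 h was thus 1.76-fold lower than in the control.

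LAMA3, the alpha chain of the hemidesmosome laminin, passed at the 2 later times. It ran from 8.40 to 9.0 in the controls (median 8.57), from 7.71 to 8.79 at 6 h (median 8.52), from 7.42 to 9.0 at 24 h (median 8.26) and from 7.54 to 8.35 at 48 h (median 8.06). The 48 h arrays all lay below the controls. The change was -0.20 at 6 h (adjusted p = 0.527), -0.47 at 24 h (SE 0.14, adjusted p = 0.0432) and -0.59 at 48 h (SE 0.14, adjusted p = 0.00417). The 24 h call did not hold without the muscle-rich arrays (adjusted p = 0.072), without the 24 h array of dog 5 (0.11), with centring (0.057) or without dog 1, 2, 3, 4, 5 or 7, and with the actin covariate neither call held (0.096 and 0.094). The beta chain LAMB3, linked in 2 comparisons, changed by 0.04, -0.06 and -0.06 (SE 0.09) and did not pass. At 48 h, where its link did not match, the authors' deposited table gives an upward fold of 1.1 (their adjusted p = 0.567). Whether LAMB3 differed from LAMA3 was not tested.

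ITGB4, the beta chain of the hemidesmosome integrin, ran from 8.05 to 8.86 in the controls (median 8.23), from 8.01 to 8.73 at 6 h (median 8.18), from 7.57 to 8.32 at 24 h (median 7.90) and from 7.69 to 8.31 at 48 h (median 8.05). The groups overlapped throughout. ITGB4 fell by 0.37 at 24 h (SE 0.10, adjusted p = 0.0165, 7 of 8 dogs) and by 0.29 at 48 h (adjusted p = 0.0363, 6 of 8 dogs). Neither call held without the muscle-rich arrays, where the changes were -0.41 and -0.35 (adjusted p = 0.070 and 0.054), and the 48 h call was also lost with the dog as a random effect (0.055) and with the actin covariate (0.19). Of 19 alternatives, the 24 h call of ITGB4 held in 15 and its 48 h call in 10. Its partner ITGA6 changed by 0.05, -0.19 and -0.10 and did not pass. ITGB6, which with ITGAV frees TGF-beta from its latent form on epithelia, ran from 5.38 to 5.97 in the controls (median 5.55), from 4.63 to 5.49 at 6 h (median 5.22), from 5.17 to 5.80 at 24 h (median 5.43) and from 4.84 to 5.64 at 48 h (median 5.31). The groups overlapped, and the lowest array was that of dog 4 at 6 h. ITGB6 fell by 0.41 at 6 h (SE 0.10, adjusted p = 0.0223, 7 of 8 dogs) and by 0.30 at 48 h (adjusted p = 0.0351, 6 of 8 dogs), and changed by -0.15 at 24 h (adjusted p = 0.418). Without the muscle-rich arrays its 48 h change was -0.26 (adjusted p = 0.18), and with the dog as a random effect the adjusted p was 0.051. In all, the 48 h call of ITGB6 held in 7 of 19 alternatives and its 6 h call in 11. ITGA3 and LAMA5, both linked in 2 comparisons, did not pass. ITGA3 changed by -0.19, -0.10 and -0.17, and LAMA5 by 0.04, -0.12 and -0.09. At 24 h, where the link of ITGA3 did not match, the authors' deposited table gives it an upward fold of 1.3 (their adjusted p = 0.232).

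**Figure D3:**
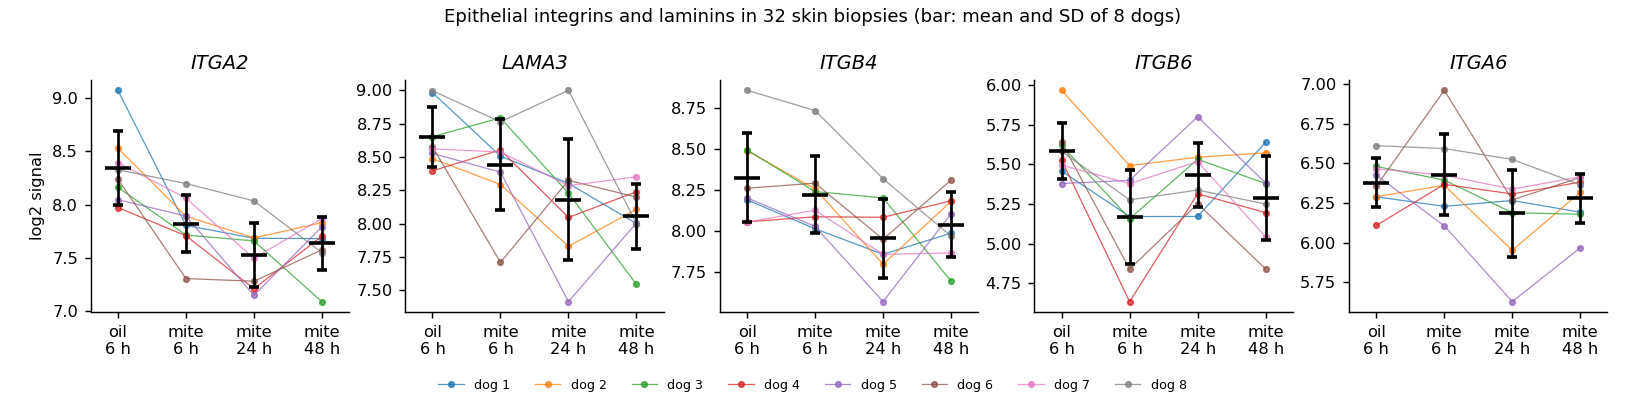
Log2 signal of the 5 fully linked epithelial integrins and laminins in each of the 32 biopsies, by group, with 1 line per dog and a bar at the mean with its SD (n = 8). ITGA2 and LAMA3 at 48 h lie wholly below their control arrays, and the other 3 genes overlap with them.

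The 5 linked markers of basal keratinocytes averaged 8.32 ± 0.31 (SD, n = 8) in the controls, 8.05 ± 0.44 at 6 h, 8.14 ± 0.39 at 24 h and 8.15 ± 0.15 at 48 h. At 6 h DSG3 fell by 0.53 (adjusted p = 0.0317), and none of the 5 passed at 24 h. At 48 h KRT15, a keratin of basal and hair follicle cells, fell by 0.91 (adjusted p = 0.00256), while KRT5 changed by 0.21, DSC3 by 0.04, TP63 by -0.11 and DSG3 by -0.12. Their part in the epithelial integrin values was not tested. Of 4 linked partners in the hemidesmosome and basement membrane, NID2, a nidogen that ties laminin to collagen, fell by 0.66 at 24 h and by 0.62 at 48 h (adjusted p = 0.0488 and 0.0354). DAG1, the dystroglycan that is a laminin receptor outside the integrin family, fell by 0.35 and by 0.57 (adjusted p = 0.0410 and 0.000319). HSPG2 and PLEC did not pass.

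ITGB1, the beta chain that pairs with most alpha chains of skin cells, fell at every time. It ran from 8.97 to 9.38 in the controls (median 9.26) and from 8.00 to 9.0 at 6 h (median 8.65). It ran from 7.76 to 8.62 at 24 h (median 8.46) and from 8.17 to 8.65 at 48 h (median 8.51). The highest array at 24 h or 48 h was below the lowest control, and at 6 h the array of dog 6 was the only 1 within the control range. ITGB1 fell by 0.70 at 6 h (SE 0.12, adjusted p = 0.00254), by 0.89 at 24 h (adjusted p = 6.47e-05) and by 0.78 at 48 h (adjusted p = 3.29e-05), in 8 of 8 dogs each time, and its level at 24 h was 1.85-fold lower. LAMA4, the alpha chain of laminins around vessels and fat cells, fell at every time too. It ran from 7.59 to 8.05 in the controls (median 7.86), from 6.62 to 7.85 at 6 h (median 7.47), from 6.42 to 7.31 at 24 h (median 6.92) and from 6.89 to 7.54 at 48 h (median 7.23). The 24 h and 48 h ranges lay below that of the controls. LAMA4 fell by 0.52 at 6 h (SE 0.13, adjusted p = 0.0268, 7 of 8 dogs), by 0.97 at 24 h (adjusted p = 6.28e-05) and by 0.66 at 48 h (adjusted p = 0.000529), the last 2 in 8 of 8 dogs. The 24 h level was 1.96-fold lower than the control level.

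LAMC1, the gamma chain of most laminins, ran from 4.53 to 5.22 in the controls (median 4.75), from 4.35 to 4.80 at 6 h (median 4.56), from 3.98 to 4.53 at 24 h (median 4.28) and from 4.32 to 4.88 at 48 h (median 4.59). Its 24 h range touched no control array, as was so for 1.36% of linked genes and for ITGB1 and LAMA4, and at 48 h the ranges met again. LAMC1 passed at 24 h only (-0.52, SE 0.10, adjusted p = 0.00166, 8 of 8 dogs down), with -0.25 at 6 h and -0.19 at 48 h. LAMB2, a beta chain of vessel, muscle and nerve laminins, ran from 4.63 to 5.02 in the controls (median 4.78), from 4.74 to 5.80 at 6 h (median 5.06), from 4.02 to 4.84 at 24 h (median 4.37) and from 3.91 to 4.85 at 48 h (median 4.37). It was above its control in 8 of 8 dogs at 6 h without passing (0.33, adjusted p = 0.107), and dog 6 was the highest there. LAMB2 fell by 0.40 at 24 h (SE 0.11, adjusted p = 0.0224) and by 0.42 at 48 h (adjusted p = 0.00742), in 7 of 8 dogs. The 24 h call was lost without the muscle-rich arrays (adjusted p = 0.094) and without the 24 h array of dog 5 (0.051), and with the actin covariate both were lost (0.053 and 0.13). LAMC1 and LAMB2 averaged 4.79 and 4.82 in the controls, below the mean array median of 4.87, so no fold is given for them.

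LAMA2, the alpha chain of muscle and nerve laminin, ran from 7.27 to 8.01 in the controls (median 7.66), from 7.55 to 8.12 at 6 h (median 8.02), from 6.58 to 7.88 at 24 h (median 7.15) and from 7.13 to 8.05 at 48 h (median 7.36). Only the 24 h change passed (-0.46, SE 0.14, adjusted p = 0.0364, 7 of 8 dogs down), and without the muscle-rich arrays it did not (-0.40, adjusted p = 0.22), nor with the dog as a random effect (0.051) or with centring (0.052). This LAMA2 call held in 7 of 19 alternatives. ITGA7, the laminin receptor chain of muscle, ran from 7.00 to 7.74 in the controls (median 7.34), from 7.07 to 8.61 at 6 h (median 7.48), from 6.41 to 7.48 at 24 h (median 6.92) and from 6.66 to 7.39 at 48 h (median 6.89). ITGA7 fell by 0.40 at 48 h (SE 0.14, adjusted p = 0.0447, 6 of 8 dogs). With the mean of the muscle markers as a covariate that change was -0.22 (adjusted p = 0.30), and with the dog as a random effect the adjusted p was 0.061. The ITGA7 call held in 7 of 19 alternatives. The muscle marker mean itself was 6.57 ± 2.75 in the controls, 8.42 ± 3.32 at 6 h, 5.26 ± 3.09 at 24 h and 3.46 ± 0.10 at 48 h.

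ITGA1, an alpha chain of a collagen receptor of connective tissue cells, ran from 5.80 to 6.48 in the controls (median 6.34), from 5.63 to 7.09 at 6 h (median 5.96), from 5.37 to 6.04 at 24 h (median 5.68) and from 5.31 to 6.05 at 48 h (median 5.77). The groups overlapped, and dog 6 at 6 h was the highest array of all. ITGA1 fell by 0.51 at 24 h (SE 0.14, adjusted p = 0.0194) and by 0.49 at 48 h (adjusted p = 0.0112), in 8 of 8 dogs at both times. ITGB5, which with ITGAV binds vitronectin, ran from 5.60 to 6.33 in the controls (median 5.86), from 5.73 to 6.10 at 6 h (median 6.06), from 4.75 to 5.93 at 24 h (median 5.40) and from 5.10 to 5.68 at 48 h (median 5.54). Its lowest arrays at 24 h and 48 h were both from dog 5. ITGB5 fell by 0.53 at 24 h (SE 0.10, adjusted p = 0.00167, 8 of 8 dogs) and by 0.48 at 48 h (adjusted p = 0.00111, 7 of 8 dogs).

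**Figure D4:**
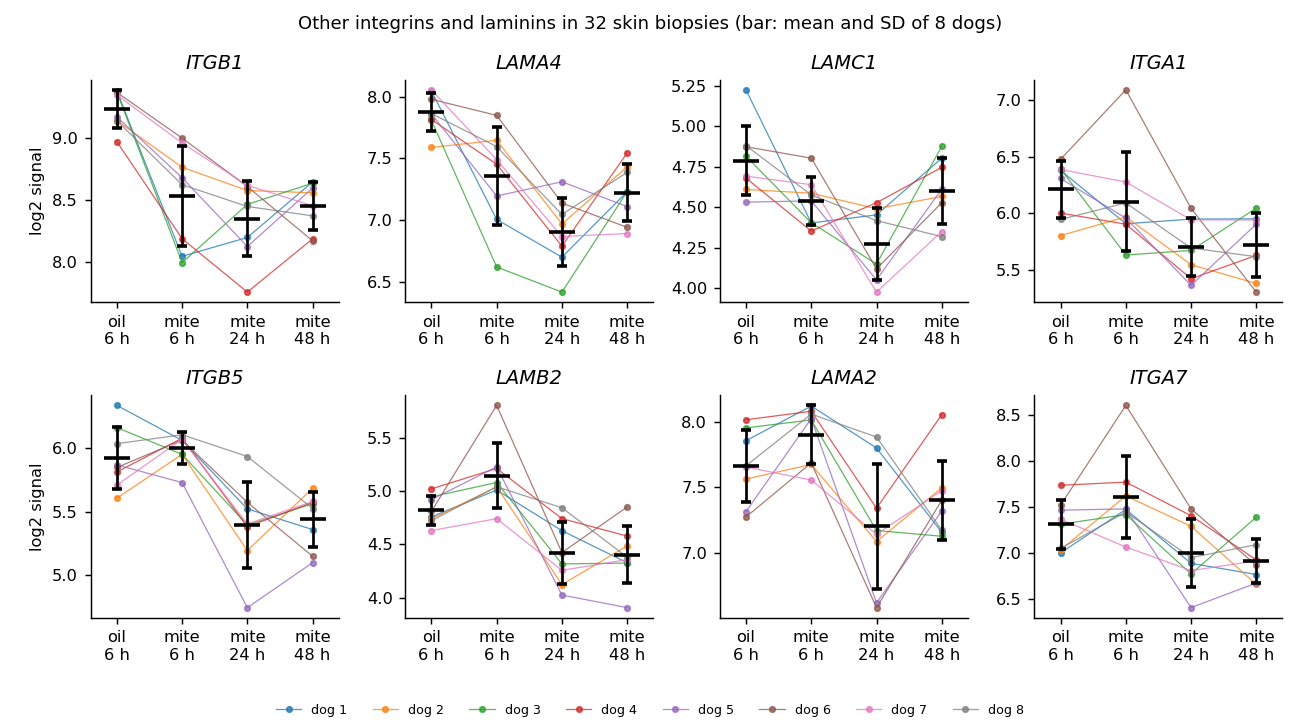
Log2 signal of the 8 other members that passed against the control, in each of the 32 biopsies, by group, with 1 line per dog and a bar at the mean with its SD (n = 8). ITGB1 and LAMA4 lie below all control arrays at 24 h and 48 h, and LAMC1 does so at 24 h.

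Connective tissue markers moved with these genes at 24 h. The 4 linked fibroblast markers averaged 9.43 ± 0.14 (SD, n = 8) in the controls, 9.59 ± 0.25 at 6 h, 8.79 ± 0.28 at 24 h and 9.16 ± 0.24 at 48 h. All 4 fell at 24 h, LUM by 0.91, PDGFRA by 0.77, COL1A2 by 0.55 and DCN by 0.36, and of these DCN alone passed at 48 h, at -0.31. Of 3 linked endothelial markers, PECAM1, a vessel wall adhesion protein, fell by 1.01 at 24 h and by 0.85 at 48 h. VWF rose by 0.45 at 48 h and KDR changed by -0.17 and 0.06, so the 3 did not move as 1. What part fibroblast or vessel RNA had in the values of ITGB1, LAMA4 or the other chains was not tested.

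The matrix that these integrins bind changed in both directions. Of 8 linked ligands, 1 fell at 6 h, 2 rose and 4 fell at 24 h, and 3 rose and 4 fell at 48 h. POSTN, the matrix protein periostin, rose by 0.90 at 24 h (SE 0.28, adjusted p = 0.0491) and 2.02 at 48 h (adjusted p = 1.28e-05). LTBP1, which holds latent TGF-beta in the matrix, rose by 0.77 and 1.48, and TGFB1 itself by 0.55 at 48 h. TNC, the matrix protein tenascin C, fell by 0.88 at 24 h and by 1.20 at 48 h (SE 0.14, adjusted p = 1.13e-06), in 8 of 8 dogs. EDIL3 fell by 0.62, 0.64 and 0.68 at 6 h, 24 h and 48 h, THBS1 by 0.59 and 0.65 at the later times and MFGE8 by 0.39 and 0.30. NPNT did not pass. Among 8 linked adaptors that tie integrins to actin, 1 fell at 6 h, 4 at 24 h and 5 at 48 h, and none rose. PTK2, the focal adhesion kinase, fell by 0.35 at 6 h, 0.47 at 24 h and 0.30 at 48 h, with 8 of 8 dogs down each time. The tensin TNS1 fell by 0.56 and 0.70 at 24 h and 48 h, the vinculin gene VCL by 0.40 and 0.46, the actinin ACTN4 by 0.34 and 0.38, and the talin TLN2 by 0.38 at 48 h. FERMT1, PARVB and PXN did not pass.

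Time was tested between the mite groups themselves. From 6 h to 24 h, 1 of the 23 fully linked members rose and 7 fell (34.8%, against 16.6% of linked genes, made up of 8.43% that rose and 8.17% that fell, and 17.3% of all probe sets). As deposited 886 linked genes rose and 859 fell, but 1300 rose and 573 fell with centring and 1064 rose and 680 fell with quantile normalization. The members then split into 2 up and 5 down, and 2 up and 6 down. ITGA4 rose by 0.48 (SE 0.13, adjusted p = 0.0112). LAMB2 fell by 0.72 (SE 0.11, adjusted p = 0.000128) and LAMA2 by 0.70 (SE 0.14, adjusted p = 0.0011), each in 8 of 8 dogs. ITGA11, a collagen receptor chain of fibroblasts, fell by 0.47, LAMA4 by 0.45, ITGA1 by 0.40, ITGA8 by 0.27 and ITGA6 by 0.25. Of 19 alternatives, the ITGA1 call held in 6 and the ITGA6 call in 3, where that of LAMA4 held in 18. Among the members linked in 2 comparisons, ITGB2 rose by 0.75 and ITGAE by 0.33, while ITGA7 and ITGB5 each fell by 0.61. From 24 h to 48 h 1 of the 23 passed, ITGAX, up by 0.63 (SE 0.16, adjusted p = 0.0277, 4.35% against 2.85% of linked genes, made up of 2.76% that rose and 0.0951% that fell, and 2.56% of all probe sets). ITGB2, linked in 2 comparisons, rose by 0.99 (SE 0.22, adjusted p = 0.0146). No member fell over that interval.

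Muscle and the actin difference used as a covariate were highest in the 6 h mite group, and fewer 6 h calls passed in the fits that dealt with these. Against the other 5′ actin probe set the difference was 2.70 at 6 h and 2.77 in the controls, and no fit used it. With the muscle marker mean as a covariate 3 of the 4 calls held and LAMA4 was lost. Without the 9 muscle-rich arrays none of the 23 passed limma's test at 6 h (3 at an unadjusted p under 0.05), nor did any of the 10512 linked genes, with 3 mite arrays left in that group. Only dog 8 then kept both a 6 h control and a 6 h mite array. That fit thus cannot show whether the 6 h calls depended on muscle. With the actin difference as a covariate none of the 23 passed either (2 unadjusted), nor did any of the 10512 linked genes. The 4 genes kept their sign under both, with ITGB1 at -0.57 and -0.44, ITGA2 at -0.46 and -0.49, LAMA4 at -0.39 and -0.28, and ITGB6 at -0.34 and -0.22. At 24 h, 6 of 23 passed under each setting. Of the 10512 linked genes, 765 passed at 24 h without the muscle-rich arrays and 1090 with the actin covariate. At 48 h, 8 passed without the muscle-rich arrays and 7 with the actin covariate, against 10 with all 32 arrays. For the linked genes these 48 h counts were 1985, 1671 and 2436. The differences between 6 h and 24 h were lost without the muscle-rich arrays (0 of 23, 5 unadjusted), where 0 of the linked genes passed too. With the actin covariate LAMA4 alone was left, beside 151 of the linked genes. Against the control, 5 of the 13 calls of linked members at 24 h (ITGA2, ITGB1, ITGB5, LAMA4 and LAMC1) and 9 of the 14 at 48 h (ITGA1, ITGA2, ITGA4, ITGAE, ITGAX, ITGB1, ITGB2, ITGB5 and LAMA4) held under every alternative that tested them, and none of the 4 at 6 h did. Between the mite groups, 0 of the 12 calls from 6 h to 24 h and 0 of the 2 from 24 h to 48 h held under every alternative. At 6 h against the control and from 6 h to 24 h, 0 of all 42860 probe sets passed without the muscle-rich arrays. No call of any gene could thus hold under every alternative in those comparisons. The plot of changes in the other fits shows the points near the line of equal values at 24 h and 48 h.

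**Figure D5:**
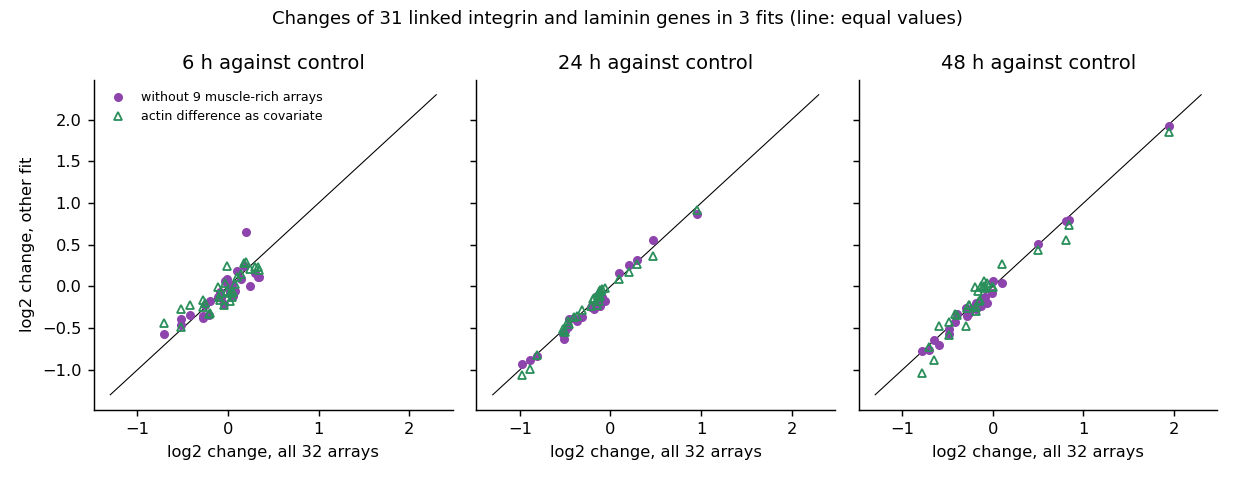
Log2 change from the control of the 31 linked integrin and laminin genes, with all 32 arrays on the horizontal axis and on the vertical axis without the 9 muscle-rich arrays (filled circles) or with the actin difference as a covariate (open triangles); the line marks equal values. ITGB2 lies at the upper right at 48 h, at 1.94 on the horizontal axis and 1.93 and 1.85 on the vertical axis.

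In all, 16 of the 31 linked members passed against the control at 1 time or more, and 12 of the 23 fully linked ones (52.2%, where 26.3% of linked genes did). The other 15 changed by between -0.28 and 0.34 at all times, and 5 of them have been given above (ITGAM, ITGA6, ITGA3, LAMA5 and LAMB3). The platelet pair ITGA2B and ITGB3 changed by 0.02, -0.18 and -0.10 and by -0.28, -0.12 and -0.19. ITGB8, another partner of ITGAV that frees TGF-beta, changed by -0.28, -0.22 and -0.15. The collagen receptor chains ITGA10 and ITGA11 changed by -0.01, -0.14 and -0.26 and by 0.34, -0.13 and -0.13, with ITGA11 above its control in 8 of 8 dogs at 6 h (adjusted p = 0.112). ITGA5, the fibronectin receptor chain, changed by -0.08, -0.12 and -0.01. Its 48 h fold in the authors' deposited table, which the link did not match, is 1.1 (their adjusted p = 0.803). ITGA8 changed by 0.14, -0.13 and -0.14, ITGA9 by -0.09, -0.14 and -0.08, LAMB4 by 0.03, -0.12 and -0.20, and LAMC3 by 0.10, 0.10 and 0.00.

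For the 4 members with no single match only the authors' deposited table gives values, as signed folds against the control and adjusted p-values with no error of their own. In the authors' deposited table ITGB7, a beta partner of ITGA4 and ITGAE, has folds of 1.1, 1.5 and 1.8 at 6 h, 24 h and 48 h (p = 0.724, 0.129 and 0.008). ITGAL, the alpha chain that T cells pair with ITGB2, has folds of -1, -1 and 1.1 in the authors' deposited table (p = 0.928, 0.877 and 0.04). For LAMB1, the beta chain that joins LAMC1 in many laminins, the authors' deposited table gives -1.2, -1.8 and -1.7, with p = 0.423 at 6 h and a value listed as under 0.001 at both later times. For ITGAV, the alpha partner of ITGB5, ITGB6 and ITGB8, the authors' deposited table gives 1.1, -1.2 and 1.1 (p = 0.203, 0.204 and 0.272).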

How the data were processed

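Each of the 32 arrays measured the biotin-labelled cDNA of 1 biopsy, per the labels' protocols. The authors deposited log2 signals for 43035 probe sets. How they were summarised and normalized, on which array design and with which genome build, is not given in the sources used here. A second table deposited by the authors gives a signed fold, rounded to 1 decimal and treated as a score, and a false discovery rate adjusted p-value for each gene at each time against the control, per the file headers. In the 24 h and 48 h columns some p-values are listed only as under 0.001.

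To name probe sets, a plain linear model with no dog term was run on every one of them, and a gene of the table was looked for with equal folds (within 0.05) and equal adjusted p (within 0.001). Exactly 1 probe set matched for 10523 of 17107 genes, 2 or more for 4 and none for 6580, and 10512 were used (61.4%). With the 24 h values taken from the next gene of the table, 16 matched. Members equal in 2 comparisons only were added after seeing the data. Of 2743 genes so matched at 24 h and 48 h, the table's 6 h p was not above the probe set's own in 2709, and with values of the next gene 93 met both conditions. Links at 6 h and 48 h (1500 beside 132) and at 6 h and 24 h (1488 beside 127) are less certain, which bears on ITGA3, ITGA5 and LAMB3. The table may thus hold, for each comparison, the gene's probe set with the lowest p, so linked genes, and not all probe sets, are the closer background. All 35 members have a RefSeq gene ID in the table of assembly UU_Cfam_GSD_1.0.

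Group means and a fixed dog term were then estimated over the 32 arrays with limma 3.58.1 under R 4.3.3, which left 21 residual degrees of freedom. The 175 array control probe sets were dropped and dim probe sets were kept. Tests were 2-sided with Benjamini-Hochberg adjustment over 42860 probe sets. Dogs are named in the labels, which is the source of the pairing. Deviations from the group means correlated at 0.16 on average over the 48 same-dog pairs of arrays, from -0.46 to 0.70, with 33 above 0.1. The procedure was tested on simulated data with dog effects and independent noise. Those data did not model the differences in muscle RNA or actin between groups. Precision is limited by how many arrays there are.

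Of the genes that the rule took, 1 is not reported here and enters no count of members. The members, gene lists and comparisons were chosen with earlier results of these data known. Full values are given for linked members that passed against the control at 1 time or more, and other genes are named from the lists, at most 4 that passed per list and comparison plus those a result turns on. The alternatives were no block, a random dog effect, quantile normalization, centring, leaving out dim probe sets, an intensity trend, array weights, muscle and actin covariates and leaving out each dog. Leaving out the 9 muscle-rich arrays, or the 24 h array of dog 5, was added after seeing the data.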

Additional observations from a re-analysis of the deposited data

Results flagged for a closer look

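Among 124 combinations of a linked member and a group, 17 held an array far from the other 7, where chance alone gives about 1 in 20 (6.2). Of these, 5 were the 24 h array of dog 5, which also had the lowest median of all arrays: ITGA2B (4.29), ITGA3 (2.18), ITGA5 (3.75) and LAMA5 (5.02) were lowest there and ITGA10 (4.42) was highest. The 6 h mite array of dog 6, whose muscle marker mean of 11.1 was the highest of that group, gave 4 more, with ITGA1 (7.09), LAMB2 (5.80) and ITGA7 (8.61) highest and LAMA3 (7.71) lowest. At 48 h dog 3 was lowest for ITGA2 (7.09) and LAMA3 (7.54), and dog 4 was highest for LAMA2 (8.05). The others were ITGB6 highest in the control of dog 2 (5.97), ITGB4 highest at 6 h in dog 8 (8.73), ITGAE highest at 6 h in dog 4 (3.34), ITGB5 lowest at 6 h in dog 5 (5.73) and ITGB3 lowest at 24 h in dog 4 (3.99).

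The change from the control differed between 6 h and 24 h for 12 linked members, by limma's test of the difference itself. ITGB2 (0.75), ITGA4 (0.48) and ITGAE (0.33) were higher at 24 h. LAMB2 (-0.72), LAMA2 (-0.70), ITGA7 (-0.61), ITGB5 (-0.61), ITGA11 (-0.47), LAMA4 (-0.45), ITGA1 (-0.40), ITGA8 (-0.27) and ITGA6 (-0.25) were lower. Between 24 h and 48 h the change differed for ITGB2 (0.99) and ITGAX (0.63), both higher at 48 h. None of these differences between mite groups held under every alternative. From 6 h to 24 h none could, as no probe set passed there without the muscle-rich arrays.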

How the results depend on the processing

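No called member changed sign under any alternative. The number of the 23 fully linked members that passed was 4 at 6 h, 10 at 24 h, 10 at 48 h, 8 from 6 h to 24 h and 1 from 24 h to 48 h. Without the replicate block, that is without pairing by dog, 2 passed at 6 h, 5 at 24 h, 8 at 48 h, 6 from 6 h to 24 h and 0 from 24 h to 48 h (5 at an unadjusted p under 0.05). Of the 10512 linked genes, 203, 750, 1942, 1346 and 133 then passed. With the actin covariate the member counts were 0 at 6 h, 6 at 24 h, 1 from 6 h to 24 h and 0 from 24 h to 48 h (2, 11, 7 and 4 unadjusted). The linked genes then gave 0, 1090, 151 and 104. Without the muscle-rich arrays the member counts were 0, 6, 0 and 0 (3, 12, 5 and 3 unadjusted), and those of the linked genes 0, 765, 0 and 60. From 24 h to 48 h, 0 passed with the dim probe sets left out, with the muscle covariate or without the 24 h array of dog 5 (1, 4 and 4 unadjusted), and 3 passed with array weights. ITGAX was not tested with dim probe sets left out. Leaving out 1 dog gave 2 to 4 at 6 h, 4 to 10 at 24 h and 0 to 2 from 24 h to 48 h. The 6 h count was 2 without dog 1, 2, 3, 6 or 8, and ITGB1 passed in each of these. The 24 h count was 4 without dog 5, 5 without dog 2 and 6 without dog 7, and LAMA2, LAMA3 and LAMB2 were among the calls lost each time. From 24 h to 48 h none passed without dog 1, 2, 4 or 5. At 48 h every alternative left between 7 and 11. Halving the tolerance of the gene link left 1039 of 10523 links and 3 members, since the table's folds are rounded more coarsely than that. For the other results the cause was not tested.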

Other observations

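Some genes around the integrins were still moving from 24 h to 48 h after the mite patch. Of the 5 linked activators of leukocyte integrins, FYB rose by 0.74 (SE 0.17, limma's adjusted p = 0.0180) and SKAP2 by 0.54 (adjusted p = 0.0263) over that interval, each in 7 of 8 dogs. Of the 8 linked matrix ligands, POSTN rose by 1.12 (SE 0.28, adjusted p = 0.0320), LTBP1 by 0.71 and TGFB1 by 0.41, and none fell. No hemidesmosome and basement membrane partner, focal adhesion adaptor, fibroblast or endothelial marker passed there, and limma's unadjusted p was under 0.05 for 1 of 4, 0 of 8, 2 of 4 and 2 of 3 of them. From 6 h to 24 h ICAM1 rose by 1.07 (SE 0.22, adjusted p = 0.00171, 8 of 8 dogs), while JAM2, a junction protein of vessels that some leukocyte integrins bind, fell by 0.65 (SE 0.14, adjusted p = 0.00295, 8 of 8 dogs). Neither passed without the muscle-rich arrays, where no probe set did in that comparison. None of the 2 linked suprabasal keratinocyte, 2 smooth muscle and 3 nerve markers passed in any of the 5 comparisons by limma, and the unadjusted p was under 0.05 for 1 suprabasal marker at 6 h, for 1 smooth muscle marker at 48 h against the control and 1 from 6 h to 24 h, and for 1 nerve marker at 48 h against the control.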
